A study of Mus musculus with 6 samples.

Results

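The genes described here are 9 receptors, adaptors, granule proteins and transcription factors of natural killer (NK) cells, namely Klrd1, Klrc1, Klrk1, Klrb1c, Ncr1, Fcer1g, Nkg7, Tbx21 and Eomes. They were found by symbol in the annotation of an Affymetrix mouse array, where 11 of 45037 probe sets other than controls name 1 of them. Of the 9 genes, 8 have a probe set of their own and were tested among 18193 genes, while the only probe set that names Klrb1c also names Klrb1b. RNA came from LSK cells, a marrow fraction sorted as lacking lineage markers and carrying cKit and Sca1, which holds hematopoietic stem cells and early progenitors. The 3 N1IC mice carried a lox-stop-lox N1-IC allele, which gives the active intracellular part of Notch1 after Cre acts, together with the Mx1-cre transgene. The 3 WT mice were labelled Mx1-cre+ alone, so both groups carried the recombinase. Mx1-cre is switched on by interferon and is not confined to one blood cell type. Per the labels, all mice had 3 polyIC injections at 20 mcg per g of body weight from an age of 21 days, and sorting followed 2 weeks later, at 5 weeks of age. The treatment text of the labels names Ncstn flox/flox mice, in conflict with the genotype labels, which were followed. All N1IC mice were female, and WT replicates 1 and 3 were male and WT replicate 2 female.

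NK cells are lymphocytes that kill infected or transformed cells without a rearranged antigen receptor. They read a balance of activating and inhibitory surface receptors, pass activating signals through small adaptor chains, and release cytotoxic granules, a programme under the T-box factors T-bet (Tbx21) and Eomes. Receptors of the Klr genes lie side by side in the NK gene complex, and Notch signalling is known to divert early lymphoid progenitors towards the T lineage. PolyIC, a mimic of viral double-stranded RNA, is itself known to activate NK cells, and both groups received it.

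Members with a match to a motif of Runx factors alone are not printed here. The upstream sequences shown are of the 3 members with a match to a motif of T-box (Ncr1 and Nkg7) or RBPJ (Tbx21) factors. They are the 250 bases before the annotated start, from RefSeq on GRCm38.p6, at chr7:4337465-4337714 on the plus strand for Ncr1, chr7:43436888-43437137 on the plus strand for Nkg7 and chr11:97115332-97115581 on the minus strand for Tbx21. Capitals mark the letters TCACAC (T-box), TGTGGT (Runx) and TGGGAA (RBPJ, the DNA-binding partner of active Notch), read on either strand.
Ncr1: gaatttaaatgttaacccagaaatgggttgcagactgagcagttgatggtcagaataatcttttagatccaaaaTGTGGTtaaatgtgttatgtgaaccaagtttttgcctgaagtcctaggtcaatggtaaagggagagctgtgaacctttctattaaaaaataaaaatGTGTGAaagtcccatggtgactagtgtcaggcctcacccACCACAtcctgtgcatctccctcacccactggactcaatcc
Nkg7: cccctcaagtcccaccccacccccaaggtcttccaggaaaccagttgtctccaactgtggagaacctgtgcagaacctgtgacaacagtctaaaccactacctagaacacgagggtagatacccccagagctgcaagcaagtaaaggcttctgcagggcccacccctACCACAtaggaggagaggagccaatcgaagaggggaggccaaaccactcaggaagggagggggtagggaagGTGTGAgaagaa
Tbx21: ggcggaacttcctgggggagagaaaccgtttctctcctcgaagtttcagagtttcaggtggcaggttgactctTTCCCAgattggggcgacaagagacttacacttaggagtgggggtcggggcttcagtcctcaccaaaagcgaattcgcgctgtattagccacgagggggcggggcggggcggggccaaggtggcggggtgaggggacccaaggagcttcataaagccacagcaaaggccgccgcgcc
Windows of 250 bases before to 50 after the start were found for 8 of the 9 members. TCACAC occurred in 2 of the 8, Ncr1 and Nkg7, and in 14.5% of all 32851 windows of this length. TGTGGT occurred in 6 of the 8, the exceptions being Tbx21 and Eomes, against 16.8% of all windows. TGGGAA occurred in Tbx21 alone, against 25.6% of all windows. The motifs were chosen with the expression values known, and a match is a description of letters, not of binding.

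Median log2 intensity of the 6 arrays lay between 6.48 and 6.53, and Xist and Eif2s3y matched the sex labels on all 6 arrays. Kit, a gene of the sorting gate, was bright on every array, at 11.51 ± 0.06 in N1IC and 11.76 ± 0.18 in WT (SD, n = 3 each). Notch1, the gene of the transgene, averaged 12.93 ± 0.11 in N1IC and 12.19 ± 0.16 in WT (SD, n = 3 each), although whether its probe set lies inside the transgene is not known here. WT replicate 1 stood apart, lying over 1 log2 unit below both other WT arrays on 1.51% of all probe sets, the highest such share among the 6 arrays. All values below are log2 intensity, and differences are N1IC minus WT group means.

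With all 6 arrays, 1 of the 8 members with a probe set of their own rose in N1IC and none fell. The member that rose was Nkg7, by 1.29-fold. For Klrd1, Klrk1, Ncr1, Tbx21 and Eomes the WT arrays were split, with WT replicates 2 and 3 above all N1IC arrays and WT replicate 1 within or below the N1IC range. Over all genes, 3.47% were called higher and 8.31% lower in N1IC (limma, Benjamini-Hochberg adjusted p under 0.05), so 1 of 8 higher and 0 of 8 lower is not a count that stands out. In the fit over probe sets, 0 of the 11 were higher, where 3.16% of all were, and 0 were lower, where 4.76% were. At an unadjusted p under 0.05, 2 of the 8 passed in the fit over genes, Nkg7 higher and Klrd1 lower, where 26.6% of all genes did. In the fit over probe sets 3 of the 11 did, these and the probe set shared by Klrb1b and Klrb1c, which was lower, where 23.4% of all probe sets did. Both shares are near the background. The median difference of the 8 genes was -0.93, against -0.01 over all genes tested, and without WT replicate 1 it was -1.81, again against -0.01. That array was the lowest WT array on 10 of the 11 member probe sets, so a lower median without it follows from the choice of array.

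**Figure D1:**
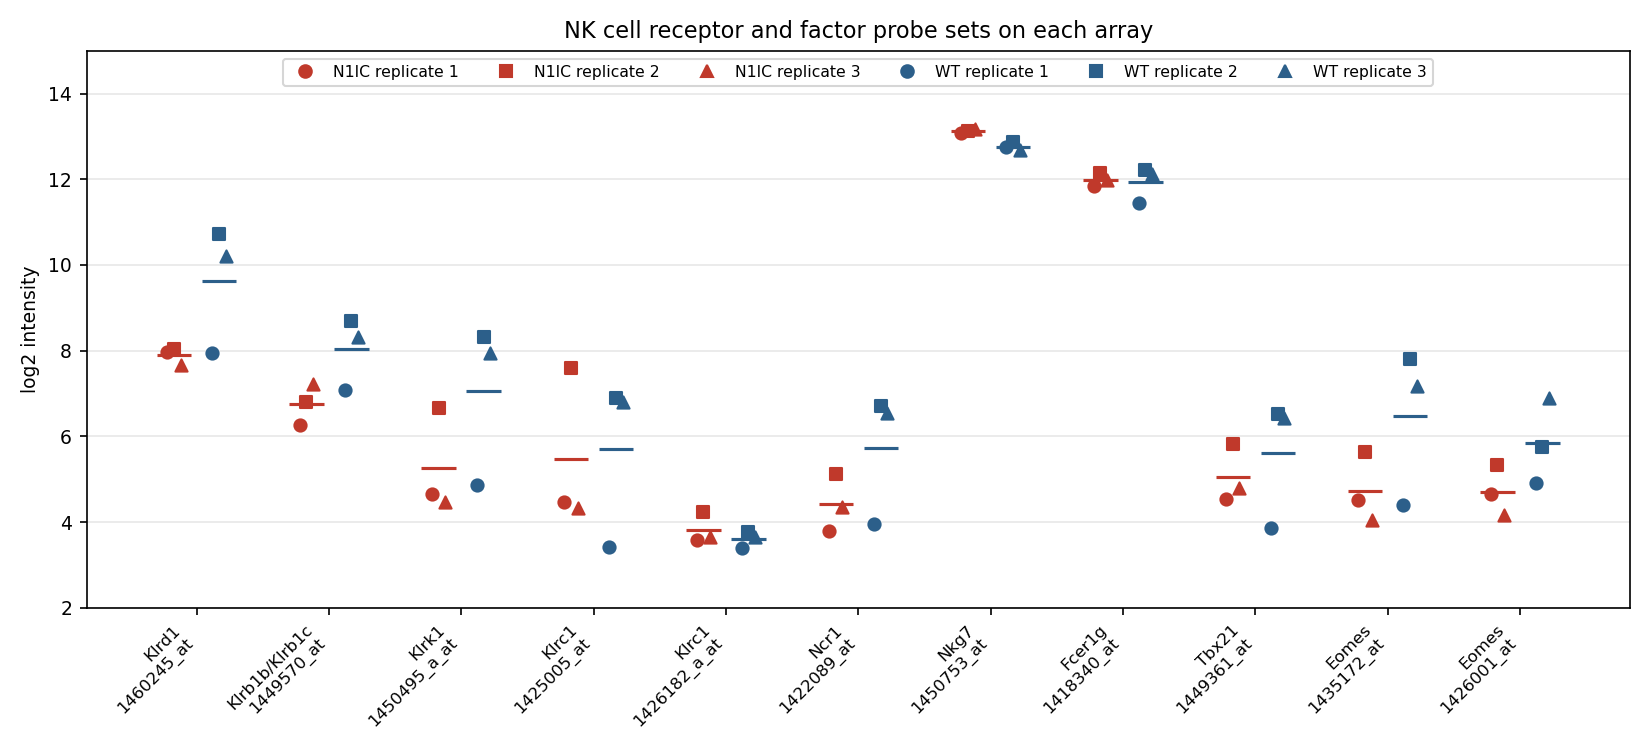
Log2 intensity (vertical axis) of the 11 member probe sets (horizontal axis) on each array, N1IC in red and WT in blue, with a marker shape per replicate number and a bar at each group mean (n = 3). WT replicate 1 (blue circle) is the lowest WT array on 10 of the 11 probe sets and N1IC replicate 2 (red square) the highest N1IC array on 9 of them.

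Klrd1 encodes CD94, the chain that pairs with NKG2 proteins to recognise the nonclassical MHC molecule Qa-1. It stood at 7.97, 8.04 and 7.66 on N1IC arrays, against 7.94, 10.73 and 10.21 on WT arrays. The N1IC values lay within a span of 0.38, while WT replicate 1 fell among them and the other WT arrays lay over 2 units higher. The difference was -1.74 ± 0.71 (SE, n = 3 per group), with a 95% interval of -3.46 to -0.01 and an adjusted p of 0.186 by limma.

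Klrc1 encodes NKG2A, the inhibitory partner of CD94. Its brighter probe set stood at 4.46, 7.59 and 4.34 on N1IC arrays, against 3.42, 6.90 and 6.81 on WT arrays. N1IC replicate 2 was thus the highest of all 6 arrays and WT replicate 1 the lowest, and the groups overlapped fully. The difference of -0.25 had a 95% interval of -3.36 to 2.86 and an adjusted p of 0.933 by limma, so these arrays leave a large change in either direction possible. The other Klrc1 probe set was dim throughout, between 3.58 and 4.23 in N1IC and between 3.41 and 3.77 in WT, and did not show the split.

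Klrk1 encodes NKG2D, an activating receptor for stress-induced ligands. It stood at 4.64, 6.67 and 4.46 on N1IC arrays, against 4.87, 8.32 and 7.95 on WT arrays. WT replicates 2 and 3 were the highest of the 6, N1IC replicate 2 came next, and the other 3 arrays lay close together. The difference was -1.79 (95% interval -4.39 to 0.80), with an adjusted p of 0.355 by limma.

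The probe set shared by Klrb1b and Klrb1c cannot be assigned to either gene. Klrb1c encodes NK1.1, the antigen used to identify NK cells in some mouse strains, and Klrb1b encodes a related inhibitory receptor. It stood at 6.26, 6.81 and 7.23 on N1IC arrays, against 7.08, 8.70 and 8.31 on WT arrays, with 1 WT array inside the N1IC range. The difference was -1.26 (95% interval -2.40 to -0.13), with an adjusted p of 0.172 by limma over all probe sets. A probe set of Klrb1b alone, named after its values were seen, averaged 5.19 ± 0.35 in N1IC and 5.82 ± 0.93 in WT (SD, n = 3 each), with an adjusted p of 0.461 by limma.

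Ncr1 encodes NKp46, an activating receptor expressed by NK cells and some other innate lymphoid cells. It stood at 3.80, 5.13 and 4.34 on N1IC arrays, against 3.96, 6.71 and 6.54 on WT arrays. WT replicates 2 and 3 were above every other array, and WT replicate 1 lay within the N1IC range. The difference was -1.31 (95% interval -3.24 to 0.63), with an adjusted p of 0.365 by limma.

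Fcer1g encodes the Fc receptor gamma chain, a signalling adaptor that carries activating signals from NKp46 and also serves Fc receptors of mast cells, basophils and myeloid cells. It was bright on every array. The N1IC arrays stood at 11.85, 12.14 and 11.98, against 11.44, 12.22 and 12.12 for the WT arrays. The groups overlapped, and WT replicate 1 was again the lowest. The difference was 0.06, its 95% interval of -0.48 to 0.60 leaves out a change of more than 1 log2 unit either way, and the adjusted p was 0.904 by limma. Markers of these other cells did not move one way. Of 12 mast cell and basophil markers, 2 rose (Cpa3 and Mcpt1, proteases of mast cells) and none fell, and their summed linear intensity lay between 11879 and 17442 in N1IC and between 2645 and 8814 in WT. Ms4a2, Hdc and Mcpt8 of the same list, named after their values were seen, had differences of -1.02, -1.23 and -0.56 and did not pass. Hdc did pass without WT replicate 1, its lowest WT array (adjusted p = 0.0318 by limma). Of 11 neutrophil markers 4 fell and none rose, and of 11 macrophage and monocyte markers 2 rose and 1 fell. The part of any of these cells in the Fcer1g signal was not tested.

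Nkg7 encodes a membrane protein of cytotoxic granules in NK cells and T cells. It stood at 13.08, 13.13 and 13.18 on N1IC arrays, against 12.75, 12.86 and 12.68 on WT arrays. It was the member probe set with the highest intensity and the only 1 of the 11 on which the groups did not overlap, where 29.5% of all probe sets and 32.8% of genes do not. The difference was 0.37 ± 0.08 (SE, n = 3 per group), with a 95% interval of 0.17 to 0.56 and an adjusted p of 0.0391 by limma over genes. Adjusted over all probe sets the p was 0.0596, and the call was also lost when any single array was left out, at adjusted p between 0.0583 and 0.122. WT replicate 1 did not stand apart on Nkg7, lying 0.02 below the mean of the other WT arrays. By Pearson's correlation over the 6 arrays, the genes most like Nkg7 were Bcl2l14 (0.995), Mtx1 (0.995) and Mrgbp (0.994). These arrays share the same split into groups, so the coefficients describe the samples only.

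Tbx21 encodes T-bet, a T-box factor needed for NK cell maturation. It stood at 4.54, 5.83 and 4.79 on N1IC arrays, against 3.87, 6.52 and 6.43 on WT arrays. WT replicate 1 was the lowest array of all and N1IC replicate 2 was nearest to the high WT arrays. The difference was -0.55 (95% interval -2.45 to 1.35), with an adjusted p of 0.721 by limma.

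Eomes encodes the related T-box factor that acts with T-bet in mature NK cells. Its brighter probe set stood at 4.52, 5.63 and 4.05 on N1IC arrays, against 4.40, 7.82 and 7.18 on WT arrays. The other probe set stood at 4.64, 5.33 and 4.16 in N1IC, against 4.91, 5.75 and 6.90 in WT. Both probe sets were highest on WT replicates 2 and 3, and on both WT replicate 1 lay within the N1IC range. The brighter one differed by -1.74 (95% interval -4.02 to 0.55), with an adjusted p of 0.310 by limma.

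The split of the WT group ran through most members. WT replicate 1 lay over 1 log2 unit below both other WT arrays on 7 of the 11 member probe sets, against 1.51% of all probe sets. The gap to the mean of the other WT arrays was -2.53 for Klrd1, -3.27 for Klrk1, -3.44 for the brighter Klrc1 probe set, -2.67 for Ncr1, -2.60 for Tbx21 and -3.10 for the brighter Eomes probe set. N1IC replicate 2 lay over 1 unit above both other N1IC arrays on 4 of the 11 member probe sets, those of Klrk1, Tbx21 and the brighter ones of Klrc1 and Eomes, against 0.364% of all probe sets. The high WT arrays came from a female and a male mouse, so the split did not follow the sex labels.

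Several marker lists of other cell types had the same low array. WT replicate 1 lay over 1 unit below both other WT arrays for 6 of 11 neutrophil, 4 of 8 dendritic cell, 5 of 11 macrophage and monocyte, 5 of 10 T cell, and 3 of 12 mast cell and basophil markers, against 2.21% of all genes. It did so for none of 7 B cell, 7 megakaryocyte and platelet, or 7 LSK and stem cell genes. Summed linear intensity of the neutrophil markers lay between 28239 and 44371 in N1IC and between 50446 and 103298 in WT, with WT replicate 1 the lowest WT array. For N1IC replicate 2 none of the 8 marker lists held a gene over 1 unit above the other N1IC arrays. Over all genes the share was 0.385%, at which lists this short would hold few or none. Of the 21 cytotoxic effectors and cytokines of NK cells, 3 lay so, Gzmc, Gzmd and Gzme, named after their values were seen. In sorted bulk cells, a different share of cells that express the members and a different level per cell cannot be told apart. Which cells gave the members' values, and the part of residual mature cells in them, was not tested. Which antibodies made up the lineage panel was not known here.

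**Figure D2:**
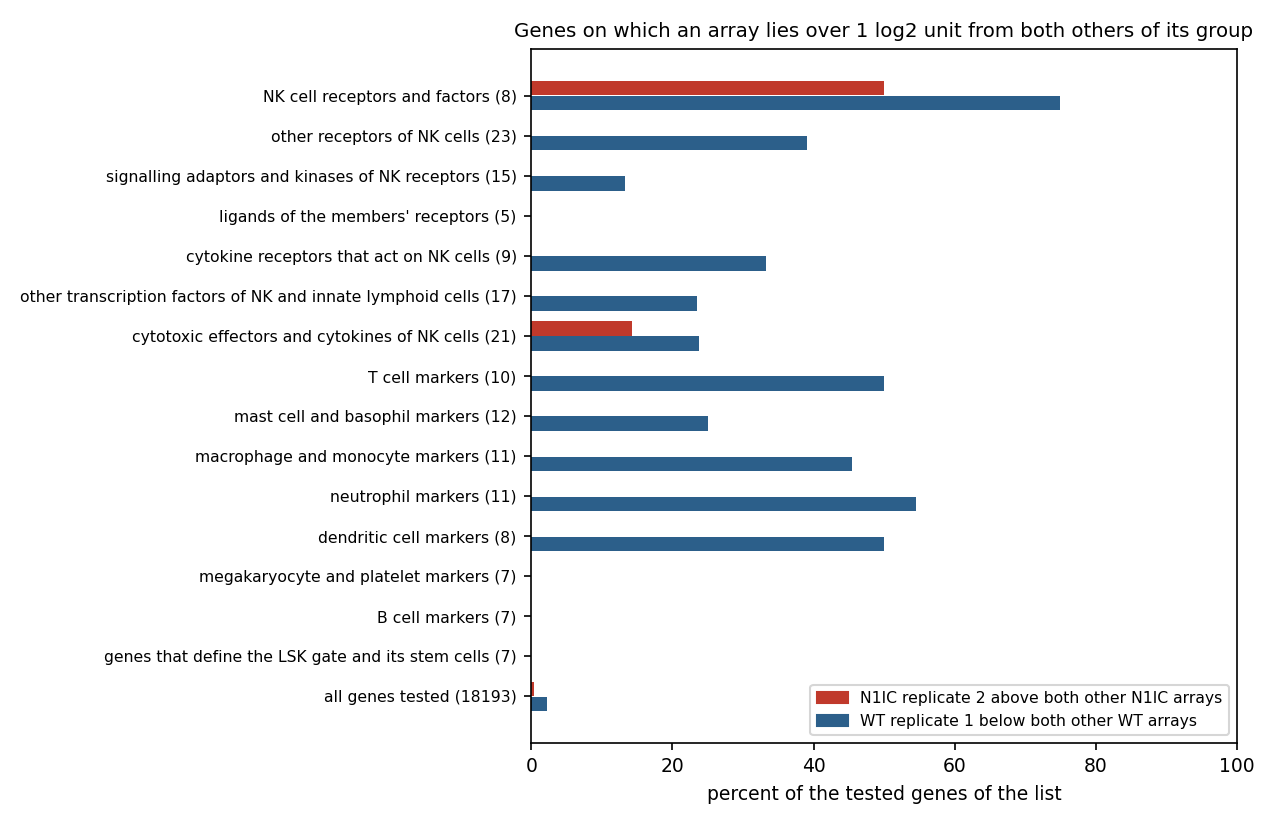
Percent (horizontal axis) of the tested genes of each list (vertical axis, number tested in brackets) on which N1IC replicate 2 lies over 1 log2 unit above both other N1IC arrays (red) or WT replicate 1 lies over 1 unit below both other WT arrays (blue). WT replicate 1 is low on 75% of the NK cell receptors and factors and on 2.21% of all genes, and N1IC replicate 2 is high on 50% of that list and on 0.385% of all genes.

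Leaving out WT replicate 1 changed which members were called. The array left out has the lowest WT value on 10 of the 11 member probe sets, so a WT mean that is higher without it follows from the choice of array. Nkg7, whose lowest WT array was replicate 3, is the exception. On most members the spread of the remaining WT arrays is smaller for the same reason. The SE of Klrd1 was 0.21 without this array and 0.71 with it, in the fits over probe sets. Calls and groups without overlap are thus favoured by the choice, and the counts below do not test whether the members fell. Without WT replicate 1, 3 of the 8 members were called lower in N1IC and none higher, where 7.81% of all genes were called lower and 2.80% higher. Klrd1 was 5.98-fold lower (adjusted p = 0.00348 by limma) and Ncr1 4.59-fold lower (adjusted p = 0.029). Eomes, by its brighter probe set, was 6.82-fold lower (adjusted p = 0.0302 by limma). The other Eomes probe set had a difference of -1.62 and did not pass (adjusted p = 0.124 by limma over all probe sets). Ncr1 and the brighter Eomes probe set were dim in N1IC, at means of 4.43 and 4.73, below the array medians of 6.48 to 6.53. The probe set shared by Klrb1b and Klrb1c was 3.34-fold lower, with an adjusted p of 0.0396 by limma over all probe sets, where 4.36% were called lower and 2.79% higher. Klrk1 did not pass in this fit (difference -2.88, adjusted p = 0.0679), nor did Tbx21 (-1.42, adjusted p = 0.0939), Klrc1 (-1.39, adjusted p = 0.481) or Fcer1g (-0.19, adjusted p = 0.402), and Nkg7 had a difference of 0.36 (adjusted p = 0.0881). Groups did not overlap on 8 of the 11 member probe sets without this array, where 41.4% of all probe sets and 44.6% of genes do not. Of the neutrophil markers, 10 of 11 were called lower in the same fit.

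**Figure D3:**
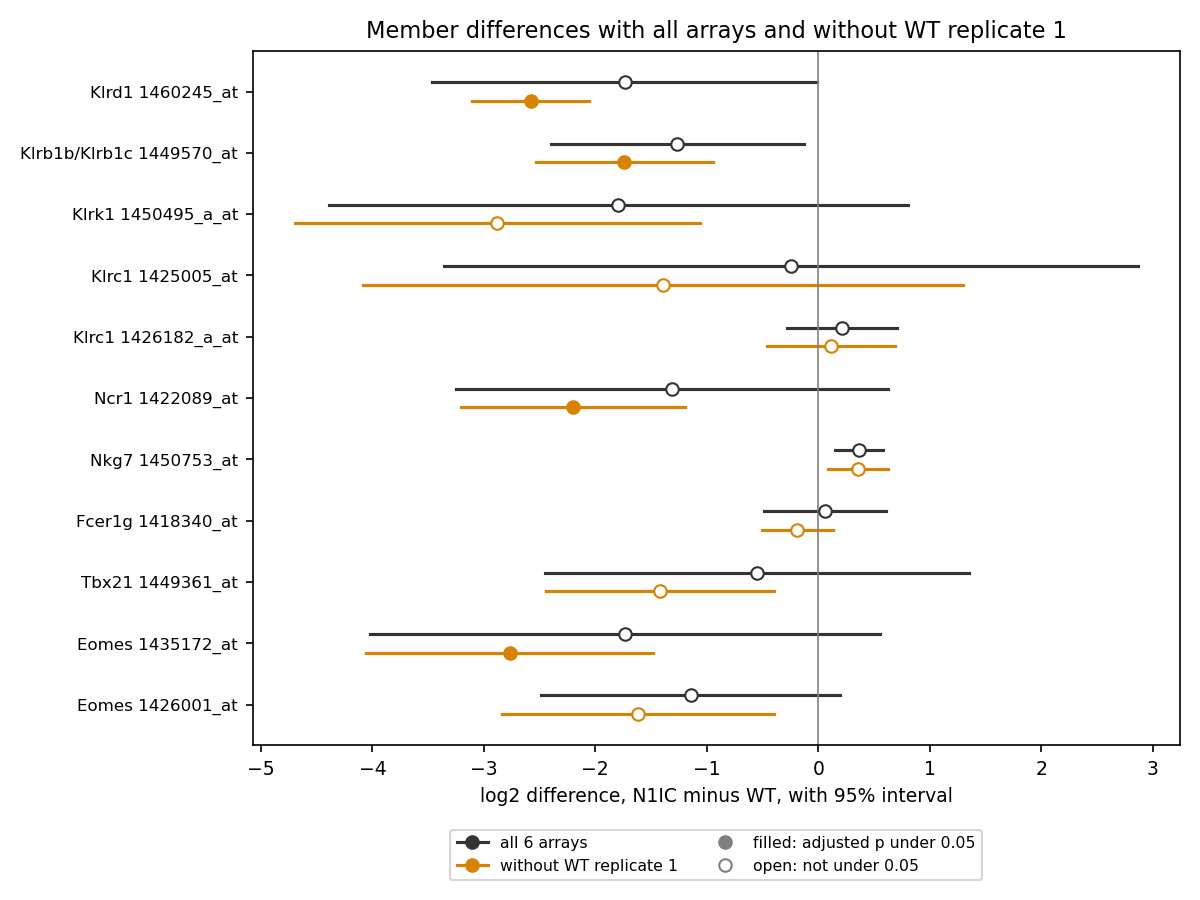
Log2 difference N1IC minus WT (horizontal axis) with its 95% interval for the 11 member probe sets, with all 6 arrays (black) and without WT replicate 1 (orange), where a filled point has an adjusted p under 0.05 over all probe sets. Without that array, 4 probe sets are filled, Klrd1 at -2.58, the Klrb1b and Klrb1c probe set at -1.74, Ncr1 at -2.20 and the brighter Eomes probe set at -2.77.

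Other receptors of NK cells went different ways. Of 23 tested, 3 rose and 1 fell with all arrays, and the median difference was -0.28 (-0.44 without WT replicate 1). Cd160, a receptor for HVEM also found on T cells, rose 14.4-fold, to 10.68 ± 0.20 in N1IC against 6.84 ± 0.98 in WT (SD, n = 3 each). Slamf6 and Cd244a, receptors of the SLAM family, rose 6.59-fold and 1.52-fold, while Slamf7 of the same family was 4.11-fold lower. The adjusted p by limma was 0.00638 for Cd160, 0.000685 for Slamf6, 0.0145 for Cd244a and 0.0328 for Slamf7. The call of Slamf7 was lost without N1IC replicate 1 or 3 or WT replicate 2 or 3, at adjusted p up to 0.106, and that of Cd244a without N1IC replicate 1 or 2 or WT replicate 2, at up to 0.0565 (limma). With a sex term, which sets N1IC against the single female WT mouse, Slamf6 alone of these 4 kept its call, and Cd160 had an adjusted p of 0.0708. No Klra gene (the Ly49 receptors) or other Klr gene of this list passed with all arrays. WT replicate 1 lay over 1 unit below both other WT arrays for 9 of the 23, so falls without it are favoured by the choice of array. Without WT replicate 1, 4 of the 23 rose and 6 fell, where 2.80% of all genes were called higher and 7.81% lower. Those that fell were Slamf7 and, named after their values were seen, Klre1, Klrb1a, Klra5, Klra8 and Klra17, and Cd7 joined those that rose.

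In the stretch of chromosome 6 between Klrb1a and Klra2, which holds the NK gene complex, 34 genes were tested, 3 of them members (Klrd1, Klrk1 and Klrc1). This stretch was chosen after values were seen. In it 1 gene rose and 2 fell. Clec2i, which encodes a C-type lectin-like ligand of Klr receptors, rose 4.20-fold, to 9.44 ± 0.46 in N1IC against 7.37 ± 0.58 in WT (SD, n = 3 each). The genes that fell were Olr1 and Gabarapl1, neither of them an NK receptor. Each lost its call when single arrays were left out, Gabarapl1 with any of the 6 and Olr1 with any but WT replicates 1 and 2, at adjusted p up to 0.13 and 0.0878 (limma). The call of Clec2i was lost without N1IC replicate 1 or WT replicate 2, at up to 0.0582, and with a sex term, at 0.129. WT replicate 1 lay over 1 unit below both other WT arrays for 10 of the 34. Among 5 tested ligand genes of the members' receptors or their relatives, Clec2i was the only one that passed.

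Of 15 signalling adaptors and kinases tested, 5 rose and 2 fell. Cd247, the zeta chain that pairs with Fcer1g or itself below NKp46 and the T cell receptor, rose 5.39-fold, and Lat, an adaptor of T cells that NK cells also use, rose 3.43-fold. Lcp2, Grap2 and Plcg1, named after their values were seen, rose by differences of 0.74, 0.93 and 0.33. The kinase Syk and the lipid phosphatase Inpp5d fell by 0.63 each on the log2 scale. Lat and Inpp5d passed whichever array was left out, but with a sex term Lat alone of the 7 passed, and Inpp5d had an adjusted p of 0.103 (limma). Cd247 lost its call without N1IC replicate 1 or 2 (adjusted p up to 0.0676 by limma), Syk without any but N1IC replicate 3 and WT replicate 1 (up to 0.0737), Lcp2 without any but N1IC replicate 2 and WT replicate 3 (up to 0.0781), Grap2 without any but N1IC replicate 2 (up to 0.137) and Plcg1 without any (up to 0.134). Tyrobp (DAP12) and Hcst (DAP10), which carry signals of NKG2D and were also named after their values were seen, had differences of 0.27 and -0.57 and did not pass, at adjusted p of 0.481 and 0.0945 by limma.

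Of 9 cytokine receptor genes tested, 2 rose and 1 fell. Il12rb2 and Il12rb1, which form the interleukin 12 receptor, rose 4.25-fold and 2.15-fold, and Il21r was 1.85-fold lower. The call of Il21r was lost without N1IC replicate 1 or any WT array, at adjusted p up to 0.118 (limma). With a sex term none of the 3 passed, at adjusted p of 0.0511 for Il12rb2, 0.126 for Il12rb1 and 0.271 for Il21r. Il2rb, the beta chain through which interleukin 15 acts on NK cells, was named after its values were seen. It was 5.06, 5.79 and 5.55 on N1IC arrays, against 5.21, 8.42 and 8.21 on WT arrays, the same split as the NK receptors, and did not pass (adjusted p = 0.250 by limma).

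Of 17 other transcription factors of NK and innate lymphoid cells, 2 rose and 3 fell. Gata3 and Bcl11b, factors of the T lineage and of some innate lymphoid cells, rose 6.39-fold and 7.23-fold. Rora, a factor of group 2 innate lymphoid cells, was 5.92-fold lower and Irf8 7.58-fold lower, and Tox2, named after its values were seen, was 4.55-fold lower. Tox2 lost its call without N1IC replicate 2 or 3 or WT replicate 2 or 3, at adjusted p up to 0.0947 (limma), and the other 4 kept theirs in each such fit. With a sex term Gata3, Bcl11b and Rora passed, while Irf8 (adjusted p = 0.0533) and Tox2 (0.0789) did not. Gata3 showed no split of the WT arrays, at 8.59, 8.60 and 8.70, while its N1IC values were 11.28, 11.33 and 11.30. Runx3, named after its values were seen, had a difference of -0.05 and did not pass (adjusted p = 0.792 by limma).

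Of 21 cytotoxic effector and cytokine genes, 4 rose and none fell. Granzyme B (Gzmb) rose 28.8-fold and Fas ligand (Fasl) 5.97-fold, and Serpinb6b, a protease inhibitor, and Tnfsf10, the death ligand TRAIL, rose 2.56-fold and 1.43-fold. Fasl was dim in WT, at a mean of 3.99 against array medians of 6.48 to 6.53, and averaged 6.57 in N1IC. Tnfsf10 lost its call without any array but WT replicate 1, at adjusted p up to 0.143 (limma). With a sex term Gzmb and Fasl passed, while Serpinb6b (adjusted p = 0.0527) and Tnfsf10 (0.114) did not. Gzma, named after its values were seen, was 12.45, 13.64 and 13.23 on N1IC arrays, against 6.69, 10.63 and 10.12 on WT arrays, and did not pass (adjusted p = 0.0659 by limma). Nkg7 rose 1.29-fold, in the same direction as the 4 called genes of the effector list but by less than any of them. The other 17 were not called. Among these, Prf1, Srgn and Ctsw, named after their values were seen, had differences of -0.01, 0.01 and -0.08. All N1IC arrays lay above all WT arrays for 7 of the 21 and below for 2, Ccl3 (-0.87) and Ccl4 (-0.75). Groups do not overlap for 32.8% of all genes. Of 10 T cell markers, 7 rose and 3 were not called. These 3, picked with the values known, were Cd8a, Cd8b1 and Cd4, with differences of -1.18, 0.98 and -0.62. For Cd4 the groups did not overlap, and without WT replicate 1, its lowest WT array, it was called lower (adjusted p = 0.0137 by limma). Summed linear intensity of the T cell markers lay between 16686 and 21054 in N1IC and between 859 and 2840.1 in WT. The part of T-lineage cells in the Nkg7 difference was not tested.

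**Figure D4:**
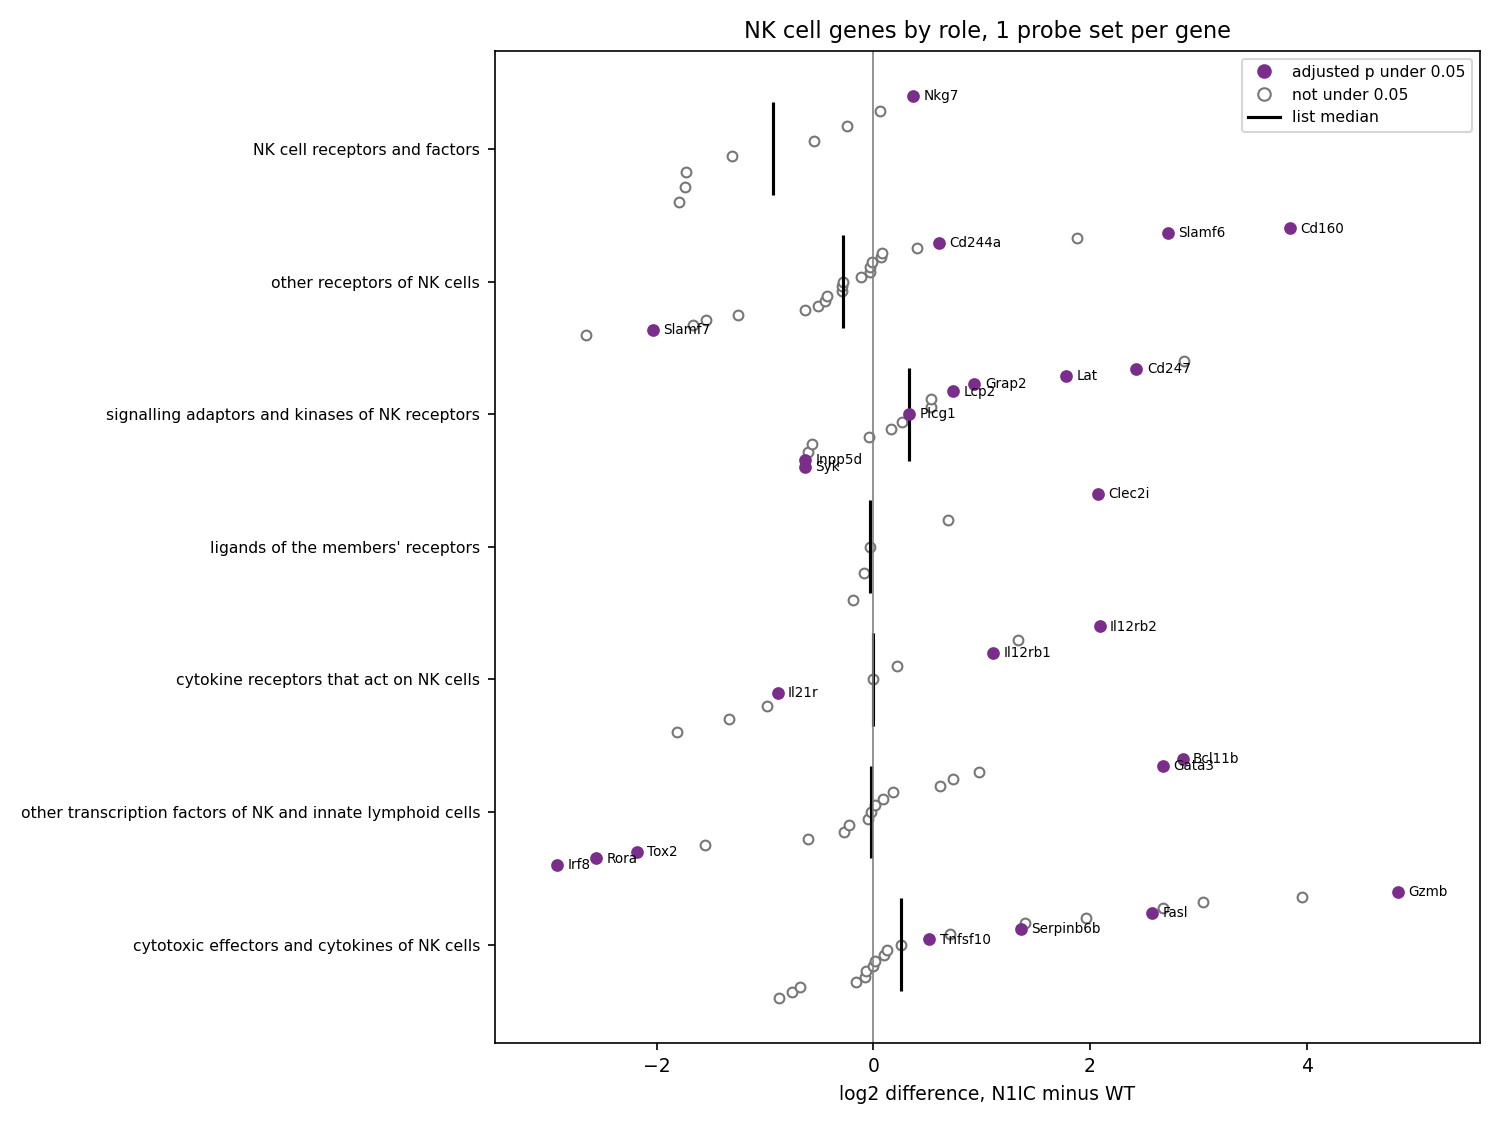
Log2 difference N1IC minus WT (horizontal axis) of each tested gene in the NK cell lists, 1 point per gene, filled and named where the adjusted p is under 0.05, with a black bar at each list's median. Nkg7 is the only filled point among the 8 NK cell receptors and factors, and the effector list reaches 4.85 at Gzmb.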

How the data were processed

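LSK cells of 3 N1IC and 3 WT mice were hybridised to Affymetrix arrays, 1 for each sample. The deposited values are probe set intensity on a linear scale, made by the authors with RMA per the submitters' processing notes, which give neither version nor settings. RMA commonly corrects background, normalizes between arrays and summarises probes. That the scale is linear was settled from the range of the values, and log2 was taken here. Detection calls were not used, so no gene is called absent. Per the labels' protocols, RNA amplification used Nugen Ovation. Precision is limited by how few arrays there are.

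The platform annotation gave 1 symbol for 34945 of 45101 probe sets, 932 had several, 9160 none, besides 64 controls. RefSeq (GRCm38.p6) gave current symbols, by gene ID, for 34741 of them. Each gene was represented by its probe set with the highest mean over the 6 arrays. The 2 groups were tested with limma 3.58.1 (lmFit, eBayes; two-sided; without covariates; R 4.3.3), once over 18193 genes and once over 45037 probe sets, with Benjamini-Hochberg adjustment and a threshold of 0.05. The procedure was tested on simulated data. Figures were drawn with matplotlib 3.10.9.

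No pair of arrays held identical values. The labels describe each sample as a mouse; where mice were not independent, p-values measure only the spread between samples. Same-numbered samples did not deviate together (correlations of deviations -0.09, -0.07 and 0.07 for replicates 1, 2 and 3), so the replicate numbers were not taken to pair them. The genes, lists and tests were chosen with earlier results of these data known. Besides the 9 members with all probe sets, up to 4 called genes by smallest p were named from each of 6 lists of NK cell genes, and 8 marker lists of other cells were counted. From the called member, the 3 genes of highest correlation were named. A gene outside this rule is marked in the text as named with its values known. Some genes of the lists were not analysed here.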

Additional observations from a re-analysis of the deposited data

How the results depend on the processing

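Counts of calls among the members rested on single choices. The 1 member called higher (Nkg7) was 0 with the replicate block (adjusted p = 0.118), with a sex term, with females alone, with the quantile normalization repeated (adjusted p = 0.052), and in each of the 6 fits that left out an array (0 in all). It kept its call with median centring, the brighter 60% of genes, the mean of all probe sets, an intensity trend, a robust prior and array weights. Over probe sets, 0 members were higher, but 1 with the brighter 60% of probe sets and 1 with an intensity trend. The count of members lower, 0 by gene and 0 by probe set, was 1 and 1 with females alone (Klrd1), and between 0 and 3 by gene and 0 and 4 by probe set with an array left out, above 0 only without WT replicate 1.

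Over all genes, 632 were higher and 1512 lower, against 357 and 936 with the replicate block, 116 and 333 with a sex term, and 142 and 504 with females alone. Leaving out an array gave 332 to 509 higher and 835 to 1420 lower. Both sex settings set N1IC against WT replicate 2 alone, the only WT female, so they do not measure an effect of sex. The block changed no other call among the members. Of 26 called genes named from the lists or the NK gene complex, 15 kept their call with the block, 8 with a sex term (Slamf6, Lat, Gata3, Bcl11b, Rora, Gzmb, Fasl and Olr1) and 11 with females alone (these with Cd160, Il12rb2 and Irf8), and none changed direction. Changes of normalization, probe set summary or prior took the call of at most 2 of them.

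Directions near 0 were not stable. Fcer1g (0.06) stood at -0.24 with a sex term and with females alone, and at -0.0187 with array weights (-0.00168 in the fit over probe sets). With an array left out it lay between -0.19 (without WT replicate 1) and 0.21 and was -0.0169 without N1IC replicate 2. Klrc1 (-0.25) stood at 0.25 and 0.32 without N1IC replicates 1 and 3, and at 0.35 and 0.30 without WT replicates 2 and 3, its lowest value being -1.39 without WT replicate 1. Tyrobp (0.27) stood at -0.0324 in both sex settings. Klrd1, Klrk1, Ncr1, Nkg7, Tbx21 and Eomes kept their direction in every alternative run. The cause of these changes was not tested.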
